A study of Mus musculus with 24 samples.

Results

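RNA recovered with a miR-29b mimic from NIH3T3 cells, a mouse embryonic fibroblast line, was set against input RNA of cells given the same mimic. The comparison rests on 4 libraries of the miR-29b pulldown and 4 of the miR-29b input, all from whole cells, out of 24 libraries in the series. They were chosen by their labels alone, as the count columns of these 2 groups. Per the labels, the mimic carried a photocrosslinking nucleoside (CNVK) and was transfected at 10 nM. Medium was topped up at 24 h and the harvest a further 8 h on. All 8 libraries share this mimic and this line. Each library started from 5 ng of RNA, and replicate 4 of the input from 6 ng. The kit used both random hexamer and oligo-dT primers. A scrambled mimic with the same chemistry gave 4 pulldown and 4 input libraries, which enter the fit and are used to show where the miR-29b pulldown differs. Nothing in the labels says that libraries of a group came from separate cultures, so the p-values measure the spread between these libraries, which may be technical.

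MicroRNAs guide Argonaute proteins to mRNAs that pair with their seed, the bases near the 5′ end, and the complex recruits deadenylases and lowers translation and stability. The miR-29 family is known for targeting mRNAs of collagens and other matrix proteins, of DNA methylation enzymes and of regulators of cell death. In fibroblasts its loss is known to go with more matrix production. A pulldown of a crosslinked mimic enriches RNAs that lay beside it, together with RNA that binds the recovery material, and the input shows how abundant each RNA was to begin with.

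The mature sequences are shown because the seed, in capitals (bases 2 to 8), is what the predicted sites in the authors' table pair with. They are RefSeq's, build GRCm38.p6. MiR-29b is made from a locus on chromosome 1 (195037091 to 195037113, plus strand) and another on chromosome 6 (31063025 to 31063047, minus strand), and all members of the family share the seed.
miR-29b-3p: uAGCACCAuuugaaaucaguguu
miR-29a-3p: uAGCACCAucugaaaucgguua
miR-29c-3p: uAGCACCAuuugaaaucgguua
A DNA-letter match to this seed reads TGGTGCT, and the strongest site class, the 8mer, reads TGGTGCTA. The sequence of the CNVK mimic itself is not among the sources used here.

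The listed counts ranged from 21726775 to 41046886 in the pulldown libraries and from 20844587 to 55153996 in the input libraries. Some libraries stood apart. By the deposited headers, replicates 1 to 3 are lysed and replicate 4 is intact. On the first principal component of the 8 libraries, which held 63.3% of the variance, input replicate 4 lay at 4.77, against −85.9 to −89.8 for input replicates 1 to 3. The pulldown libraries lay at 32.3 to 115 on this axis. In both groups replicate 3 was close to a weighted sum of replicates 1 and 2. For the pulldown the weights were 0.997 and 0.756, with a mean chi-square of 3.10 per gene, while replicate 2 fitted from replicate 1 alone gave 313. For the input they were 0.760 and 0.593, with 7.90 per gene, against 26.4 for replicate 2 from replicate 1. Replicate 3 of the scrambled groups did the same, with 4.55 per gene in the pulldown and 5.35 in the input. Scrambled pulldown replicate 4 also lay near a sum of its replicates 1 and 2, at 13.8 per gene. There replicate 2 from replicate 1 gave 309. Such libraries may not be independent, which bears on the p-values. Replicate 3 was kept as a library, and counts of calls without it are given as well. Input replicate 4 was closer to a sum of scrambled input replicate 4 and pulldown replicate 4, with weights of 1.27 and 0.243, than to the scrambled input alone (mean chi-square 64.7 and 260.0 per gene). The causes of these patterns were not tested.

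Of 12915 genes tested, 3672 (28.4%) were higher in the pulldown and 2991 (23.2%) were lower at an adjusted p under 0.05. The test was edgeR's quasi-likelihood test over 16 libraries, two-sided, with Benjamini-Hochberg adjustment, on counts scaled by TMM factors. The sizes were uneven. Of the genes called higher, 2565 changed at least 2-fold and 1043 at least 4-fold, while of those called lower 1500 changed at least 2-fold and 43 at least 4-fold. The 4 pulldown libraries all lay above the 4 input libraries in 3141 genes (24.3%) and all below in 2319 genes (18.0%). Without replicate 4 of every group, 4371 of 12834 genes (34.1%) were higher and 3973 (31.0%) lower. Replicates 1, 2 and 4 gave 2720 of 12908 (21.1%) higher and 1808 lower. With 10 libraries, leaving out replicate 3 of every group, input replicate 4 and scrambled pulldown replicate 4, there were 2679 (20.5%) and 1877 (14.4%). The split depends on the scaling. Upper-quartile factors gave 2925 higher and 4208 lower and a median log2 change over all genes of −0.29, where TMM gave −0.03, so that 41.0% of calls were higher, against 55.1% with TMM. Scaling by the deposited library totals gave 4240 higher and 1568 lower (median 0.27), 73.0% of calls being higher. Directions given here are relative to the TMM scale. With the replicate number as a block 4022 genes (31.1%) were higher and 3651 (28.3%) lower.

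By share of the library, protein-coding mRNA took more of the pulldown and the long noncoding class less, the loss being that of 1 entry, Gm26924. Protein-coding mRNAs other than ribosomal protein, histone and mitochondrial ones took 57.3, 74.8, 65.5 and 67.8% of the listed counts in pulldown replicates 1 to 4, and 48.4, 47.5, 47.8 and 38.6% in input replicates 1 to 4. The groups did not overlap, and the means were 66.4% ± 7.22 and 45.6% ± 4.67 (SD, n = 4 each). Long noncoding RNAs took 8.89, 4.82, 7.03 and 6.81% in the pulldown, against 24.1, 22.4, 24.4 and 27.2% in the input. Most of this class was Gm26924 (ENSMUSG00000098178), given in the files only with the biotype lincRNA. Whether its reads come from a long noncoding RNA was not tested, so its loss is not read as one of the class. It took 6.13% ± 1.72 of the pulldown counts and 24.2% ± 1.94 of the input counts (SD, n = 4 each), a log2 change of −2.14 ± 0.32 (SE, edgeR adjusted p = 4.58e-05).

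Small structural RNAs took 0.310, 0.210, 0.322 and 0.395% of the pulldown counts, against 0.733, 0.922, 1.06 and 0.625% of the input counts. These 3 classes did not overlap between the groups. Each reached p = 0.0286 in an exact permutation test, two-sided, the smallest that 4 against 4 can give, and 0.0667 after adjustment over 7 classes, so none passed. Ribosomal protein mRNAs took 4.93% ± 2.27 and 7.53% ± 2.36 (SD, n = 4 each). Replicate 4 was highest in both groups, at 8.31% in the pulldown and 11.0% in the input, so the groups overlapped (exact permutation adjusted p = 0.250). Mitochondrially encoded RNAs took 28.8, 16.3, 22.9 and 15.9% of the pulldown counts and 19.5, 22.9, 19.7 and 21.8% of the input counts. The means were equal at 21.0%, with a wider spread in the pulldown (SD 6.13 and 1.67). Without the 10 genes with the most counts, long noncoding RNAs turned to 1.04% ± 0.114 of the pulldown and 0.593% ± 0.188 of the input counts (SD, n = 4 each). Protein-coding mRNAs then took 90.7% ± 2.63 and 82.5% ± 4.79.

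**Figure D1:**
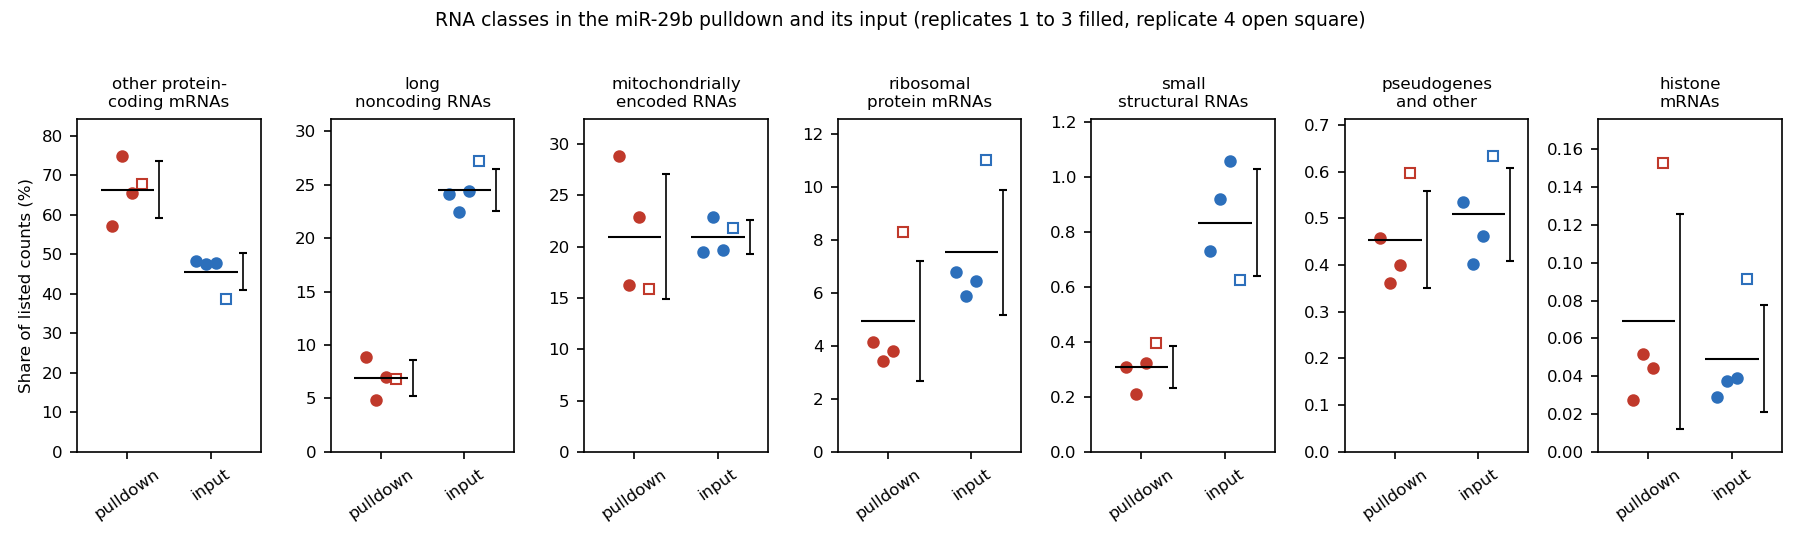
Share of listed counts (%, y axis, each from 0) for 7 RNA classes in the 4 miR-29b pulldown libraries (red) and the 4 input libraries (blue); lines are means and bars are SDs. Protein-coding mRNAs, long noncoding RNAs and small structural RNAs do not overlap between the groups, and replicate 4 (open squares) is highest in both groups for ribosomal protein and histone mRNAs.

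Counted by gene, the classes looked different from their shares. Of 511 long noncoding RNA genes tested, 112 rose (21.9%, against 28.4% of all genes) and 44 fell (8.61%, against 23.2%). With replicates 1, 2 and 4 there were 60 and 26, and with the 10 libraries 81 and 14. The median log2 change was 0.11, which turned to −0.13 with upper-quartile factors. Neat1, the scaffold of nuclear paraspeckles, had 322, 300.5, 308 and 242 CPM (counts scaled to library size and TMM factor) in pulldown replicates 1 to 4, against 38.8, 41.6, 41.9 and 57.5 CPM in the input. It was 6.51-fold higher (log2 2.70 ± 0.27 SE, edgeR adjusted p = 1.41e-06), and every pulldown library lay far above every input library. Malat1, a nuclear speckle RNA, and Tug1 rose by 2.94 ± 0.56 and 3.37 ± 0.58 on the log2 scale (SE, edgeR adjusted p = 4.05e-04 and 1.61e-04). Without input replicate 4 these were 3.89 and 4.74. Neat1 and Malat1 were also higher in the scrambled pulldown than in its input, by 3.74 and 4.80. A830019P07Rik rose by 2.74 ± 0.24 (edgeR adjusted p = 8.87e-07) and lay at −0.64 in the scrambled pair. Whether the counting used strand is not given in the sources used here, so reads of a gene and an antisense partner cannot be told apart.

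Among pseudogenes and other genes, 161 of 823 fell (19.6%, against 23.2% of all genes) and 49 rose (5.95%, against 28.4%), with a median of −0.56. The lower count was 71 with replicates 1, 2 and 4, 30 with the 10 libraries and 259 with the replicate block. Mpc1-ps fell by 1.90 ± 0.19 and H3f3a-ps1 rose by 3.20 ± 0.29 on the log2 scale (SE, edgeR adjusted p = 1.41e-06 and 9.35e-07). Reads of a pseudogene may be shared with its parent, so these values are uncertain. The small structural class moved in 2 directions. Of 14 genes with the miRNA biotype, 5 fell and none rose, and without replicate 4 only 2 fell. The most abundant was ENSMUSG00000098973, which the files do not name. It had 2038, 1066, 1626 and 766 CPM in the pulldown and 6302, 6641, 7587 and 4047 CPM in the input, a 4.47-fold loss (log2 change −2.16 ± 0.33 SE, edgeR adjusted p = 6.07e-05). It weighs heavily in the share of its class given above, so these are not separate measurements. In replicate 4 the misc_RNA genes were more abundant, at 2168 CPM in the pulldown and 2351 CPM in the input, against 276 to 504 and 489 to 569 CPM in replicates 1 to 3. Of 28 snoRNA genes, which guide modification of ribosomal RNA, 1 was called higher with all libraries, 18 of 24 without replicate 4, 12 with the 10 libraries and 12 with the replicate block. Their summed level was 27.7, 12.5, 22.1 and 100.2 CPM in pulldown replicates 1 to 4 and 3.14, 3.53, 3.51 and 40.6 CPM in the input, so replicate 4 stood above the others in both groups. In the scrambled pair, where 18.5% of all genes tested were called higher, 16 of the 28 were.

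Mitochondrially encoded RNAs had 6 of 24 genes higher and 1 lower. Of the 9 mitochondrial tRNA genes 5 rose, with a median log2 change of 2.00 against 1.95 in the scrambled pair. With replicates 1, 2 and 4, and likewise with the 10 libraries, 2 of these tRNA genes and 2 of the 24 genes were higher. Over all genes 21.1% and 20.5% were higher in these fits. Mt-Tw rose by 3.08 ± 0.55 (SE, edgeR adjusted p = 2.40e-04) from low levels, 6.79 ± 1.61 CPM in the pulldown and 0.785 ± 0.508 CPM in the input (SD, n = 4 each). The small ribosomal RNA mt-Rnr1 fell by 0.82 ± 0.24 (edgeR adjusted p = 0.00868), a call that ended in 6 of the alternatives (edgeR adjusted p = 0.0529 to 0.167), among them the 10 libraries and library totals. The large ribosomal RNA mt-Rnr2 lay at −0.22 ± 0.25 (log2 ± SE, edgeR adjusted p = 0.492). Of 13 mitochondrial mRNAs only mt-Nd3 was called, at 1.18 ± 0.46 (edgeR adjusted p = 0.0417), a call that ended without pulldown replicate 1 or 4 or without input replicate 1, 2 or 3 (edgeR adjusted p = 0.0804 to 0.148). Mt-Co1, the most abundant of these mRNAs, had 29172 ± 11595 CPM in the pulldown and 16475 ± 591 CPM in the input (SD, n = 4 each). Its log2 value of 0.82 ± 0.37 (SE) did not pass (edgeR adjusted p = 0.0752), and it did so without replicate 4 (edgeR adjusted p = 0.0393), on library totals (edgeR adjusted p = 0.0397) and by DESeq2 (adjusted p = 0.0401). Of 61 histone mRNAs 1 was called higher, Hist3h2a at 0.81 ± 0.31 (edgeR adjusted p = 0.0386). That call ended without pulldown replicate 1 or 3 or input replicate 3 or 4 (edgeR adjusted p = 0.0633 to 0.125).

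The 12 genes named for the highest log2 changes were mostly marked with a predicted miR-29 site, 10 of 12, the exceptions being Lpar4 and Acvr2a. Bmf, a BH3-only protein that promotes cell death, was highest (ENSMUSG00000040093, chromosome 2, 118528757 to 118549686, GRCm38). It had 29.1, 142, 85.5 and 5.25 CPM in the pulldown, against 1.82, 1.18, 1.40 and 1.54 CPM in the input. The groups did not overlap, but the pulldown spread was wide, with replicate 4 far below the rest. The change was 43.9-fold (log2 5.46 ± 0.76 SE, edgeR adjusted p = 2.65e-05), and 4.75 on the log2 scale without pulldown replicate 2. Bbc3, another BH3-only gene (Puma), had 46.4, 83.2, 63.2 and 32.7 CPM in the pulldown and 1.57, 1.32, 2.07 and 8.09 CPM in the input. Its log2 change was 4.07 ± 0.50 (SE, edgeR adjusted p = 8.78e-06).

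Among enzymes of DNA methylation, Dnmt3a sets new methyl marks (ENSMUSG00000020661, chromosome 12, 3801559 to 3914443). It had 117, 421, 263 and 136 CPM in the pulldown. Its input levels were 5.81, 7.30 and 6.15 CPM in replicates 1 to 3 and 28.8 CPM in replicate 4. It was 19.4-fold higher (log2 4.28 ± 0.54 SE, edgeR adjusted p = 1.03e-05). Tet2, a dioxygenase that oxidises 5-methylcytosine, had 427, 1047, 737 and 751 CPM in the pulldown, against 5.38, 6.52, 7.72 and 157 CPM in the input. Input replicate 4 was thus more than an order of magnitude above the other inputs, and Tet2 had a log2 change of 4.06 ± 0.93 (SE, edgeR adjusted p = 0.00178). Tet2 lay at 1.88 in the scrambled pair, and the difference did not pass (edgeR adjusted p = 0.194). For Dnmt3a, at 1.41 there, it did (edgeR adjusted p = 0.00542). Acvr2a, an activin receptor with no site mark, had 472, 1206, 828 and 501 CPM in the pulldown and 18.1, 23.1, 20.4 and 106 CPM in the input (log2 4.16 ± 0.55 SE, edgeR adjusted p = 1.68e-05).

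The others of the 12 were Frat2, a positive regulator of Wnt signalling, at 4.55, the transcriptional regulator Zbtb5 at 4.54, Nrep at 4.26 and Ypel2 at 4.23. The lysophosphatidic acid receptor gene Lpar4 lay at 4.18, the basement membrane collagen gene Col4a5 at 4.03 and the calcineurin-regulated transcription factor gene Nfatc4 at 3.96 (edgeR adjusted p = 2.14e-06 to 8.85e-05 for these 7). Input replicate 4 was the highest of the 4 inputs in 9 of the 12 genes. Without it the log2 changes were 6.86 for Tet2, 5.75 for Nrep, 5.55 for Frat2, 5.24 for Acvr2a, 5.23 for Dnmt3a and for Zbtb5, 5.11 for Bbc3, 5.01 for Ypel2 and 4.80 for Col4a5. Without replicate 4 of every group, the 12 genes lay at 4.22 to 6.85.

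**Figure D2:**
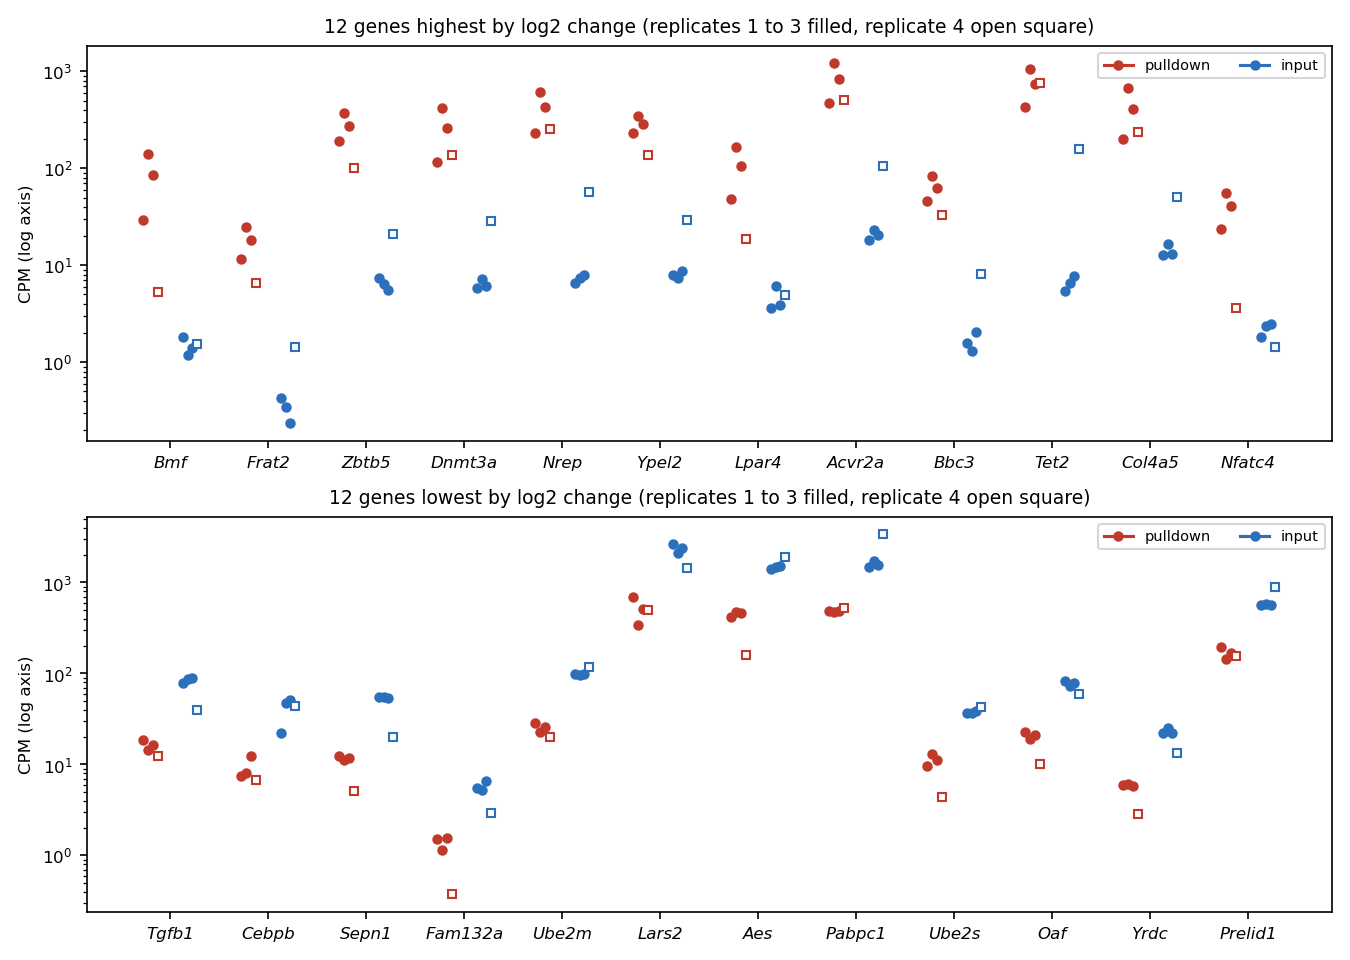
CPM on a log axis for the 12 genes with the highest and the 12 with the lowest log2 change among those named by rule, in the miR-29b pulldown (red) and its input (blue); each point is 1 library. Pulldown and input libraries do not overlap in any of the 24 genes, which the naming rule requires, and input replicate 4 (open squares) lies high in many of the upper genes.

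Of the genes reported as miR-29 targets, 71 of 79 tested rose, 1 fell and 7 did not pass, with a median log2 change of 2.73 against −0.03 for all genes tested. This list draws on the literature and was written with earlier results of these data known. Without replicate 4, 72 rose and 2 fell (median 3.40), and with the 10 libraries 68 rose and 1 fell. The summed level of the list was 45692 to 72056 CPM in the pulldown libraries and 6681 to 11935 CPM in the input libraries, the highest input being replicate 4. The gene that fell was Akt2, at −0.94 ± 0.17 (SE, edgeR adjusted p = 2.91e-04), named here after its value was seen. Kctd5, a cullin ligase adaptor, had 172 ± 56.1 CPM in the pulldown and 28.3 ± 4.31 CPM in the input (SD, n = 4 each, log2 2.60 ± 0.21 SE, edgeR adjusted p = 7.97e-07).

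Mcl1, an anti-apoptotic Bcl2 protein (chromosome 3, 95656944 to 95663179), had 1624, 2226, 1929 and 1402 CPM in the pulldown and 78.5, 84.4, 80.7 and 314 CPM in the input. It rose 12.9-fold (log2 3.69 ± 0.42 SE, edgeR adjusted p = 4.92e-06), or by 4.50 on the log2 scale without input replicate 4. Klf4, a zinc finger transcription factor, had 144, 396, 279 and 228 CPM in the pulldown and 12.2, 16.4, 13.1 and 53.3 CPM in the input (log2 3.46 ± 0.45 SE, edgeR adjusted p = 1.55e-05). Without input replicate 4 it lay at 4.28. Tdg, a thymine DNA glycosylase, and Tet3 rose by 3.45 ± 0.39 and 3.78 ± 0.84 (edgeR adjusted p = 4.63e-06 and 0.00140), and by 4.30 and 5.95 without that library. Dnmt3b rose by 3.38 ± 0.56 from low levels, 8.43 ± 3.17 CPM in the pulldown and 0.767 ± 0.789 CPM in the input (edgeR adjusted p = 1.11e-04), and by 4.53 without that library. For Cdk6, a G1 cyclin-dependent kinase, the groups overlapped, with 47.8, 87.7, 65.0 and 182 CPM in the pulldown and 7.50, 7.94, 7.35 and 49.1 CPM in the input. Its log2 change was 2.40 ± 0.60 (edgeR adjusted p = 0.00320), and 3.70 without input replicate 4. The difference from the scrambled pair did not pass for Tet3, Dnmt3b and Cdk6 (edgeR adjusted p = 0.0926, 0.129 and 0.165). It passed for Mcl1, Klf4 and Tdg (edgeR adjusted p = 6.58e-05, 1.61e-04 and 0.00144).

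Collagen genes were gained in several types, mostly those reported as targets. Of 22 collagen genes tested 15 rose and 1 fell (median 2.57), and the list summed to 13535, 23945, 18685 and 16969 CPM in pulldown replicates 1 to 4 and to 2026, 2088, 2078 and 4250.0 CPM in the input. Of these genes 12 are also reported targets. Of the other 10, 3 rose and 1 fell, where 28.4% of all genes rose and 23.2% fell, so these 10 showed no gain beyond the background. Col1a1, a chain of type I collagen (ENSMUSG00000001506, chromosome 11, 94936224 to 94953042), had 2665, 6452, 4632 and 5751 CPM in the pulldown, against 202, 229, 224 and 1233 CPM in the input. It rose 10.3-fold (log2 3.37 ± 0.54 SE, edgeR adjusted p = 8.29e-05), or by 4.52 on the log2 scale without input replicate 4. Col1a2 and Col3a1, of types I and III, rose by 2.73 ± 0.27 and 3.09 ± 0.45 (edgeR adjusted p = 1.38e-06 and 3.89e-05), Col3a1 by 3.98 without input replicate 4.

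The type IV chains of basement membranes gave Col4a1 with 2757, 3016, 2869.9 and 1314 CPM in the pulldown and 362, 348, 353 and 328 CPM in the input. Here pulldown replicate 4 was the low one and the inputs were level (log2 2.84 ± 0.37 SE, edgeR adjusted p = 1.30e-05). Col4a2 rose by 3.02 ± 0.31 and the laminin gene Lamc1 by 2.89 ± 0.31 (edgeR adjusted p = 1.69e-06 and 2.70e-06). Col6a2, of type VI and without a site mark, rose by 1.89 ± 0.15, while its partner Col6a1 lay at −0.17 ± 0.19 (edgeR adjusted p = 7.60e-07 and 0.463). The collagen that fell was Col18a1, at −0.87 ± 0.14 (edgeR adjusted p = 1.04e-04). Col6a1 and Col18a1 were named after their values were seen.

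Of 13 basement membrane genes 7 rose and none fell (median 1.48). Elastic fibre and cross-linking genes were near the background, with 7 of 20 higher (28.4% of all genes were) and 5 lower (23.2% of all genes were), and 9 lower without replicate 4. Lox, the lysyl oxidase that cross-links collagen and elastin, had 8586 ± 2944 CPM in the pulldown and 977 ± 99.9 CPM in the input (SD, n = 4 each, log2 3.14 ± 0.33 SE, edgeR adjusted p = 2.56e-06). Sparc, a collagen-binding glycoprotein, had 1774, 2124, 1936 and 1628 CPM in the pulldown and 540.1, 477, 493 and 609 CPM in the input. Both groups were tight, and Sparc rose 3.52-fold (log2 1.82 ± 0.15 SE, edgeR adjusted p = 7.97e-07). Fbn1, the microfibril gene fibrillin-1, rose by 3.20 ± 0.58 (edgeR adjusted p = 2.83e-04), and by 4.62 without input replicate 4. Fbn1 lay at 1.80 in the scrambled pair, and the difference did not pass (edgeR adjusted p = 0.204). For Lox and Sparc it did (edgeR adjusted p = 6.58e-05 and 2.57e-06). Matrix proteases and their inhibitors had 11 of 31 higher (35.5%, against 28.4% of all genes) and 4 lower (12.9%, against 23.2%). With the 10 libraries 6 were higher and 3 lower, where 20.5% and 14.4% of all genes were. The sheddase gene Adam17 lay at 1.81 ± 0.17 and Adam19 at 3.67 ± 0.49 (edgeR adjusted p = 1.16e-06 and 1.89e-05), the second at 4.82 without input replicate 4. Genes of collagen folding and secretion had 10 of 23 higher (43.5%) and 9 lower (39.1%), and 5 and 6 with the 10 libraries, where 20.5% and 14.4% of all genes were called. Fkbp10, a prolyl isomerase of the endoplasmic reticulum, rose by 2.40 ± 0.24 and the coat protein gene Sec31a by 1.33 ± 0.15 (edgeR adjusted p = 1.64e-06 and 3.16e-06).

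In the Bcl2 family, which sets the threshold for mitochondrial cell death, 10 of 14 genes rose (71.4%) and 3 fell (21.4%). The median was 0.83. Over all genes 28.4% rose and 23.2% fell, so the losses were near the background in number. Of the 9 family members that are not reported targets 5 rose and 3 fell. The gains covered both sides of the family. Besides the survival gene Mcl1 they included the effector Bak1, at 1306 ± 297 CPM in the pulldown and 166 ± 70.3 CPM in the input (SD, n = 4 each, log2 2.97 ± 0.26 SE, edgeR adjusted p = 8.04e-07). The BH3-only gene Bcl2l11 (Bim) rose by 3.46 ± 0.37 (edgeR adjusted p = 2.88e-06). The losses were Bok at −1.83 ± 0.20, Bid at −1.09 ± 0.14 while Bad fell by 1.00 ± 0.22 (edgeR adjusted p = 3.78e-06, 1.68e-05 and 0.00121). Bid and Bad were named after their values were seen. With the 10 libraries the family had 7 higher and 3 lower. Of 28 p53 pathway genes 14 rose and 7 fell (median 0.53), and 4 fell with replicates 1, 2 and 4. Btg2, an antiproliferative gene that also binds deadenylases, rose by 2.27 ± 0.20, the polo-like kinase gene Plk2 by 1.58 ± 0.14 and the death receptor gene Fas by 1.67 ± 0.15 (edgeR adjusted p = 8.30e-07 to 1.03e-06).

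Genes of the silencing machinery itself were gained. Among 26 genes of RISC and of miRNA processing, 18 rose and 4 fell (median 1.19), although 3 of the 26 carry a site mark and 1 is a reported target. Tnrc6c, a GW182 protein that links Argonaute to deadenylases, had 103 ± 33.0 CPM in the pulldown and 15.4 ± 8.44 CPM in the input (SD, n = 4 each, log2 2.73 ± 0.31 SE, edgeR adjusted p = 4.32e-06). The RNA-binding protein gene Fmr1 and the helicase gene Ddx5 rose by 1.62 ± 0.14 and 1.58 ± 0.17 (edgeR adjusted p = 9.11e-07 and 2.60e-06). The same list had 16 higher and 2 lower in the scrambled pair (median 0.85). Of 24 deadenylation genes 14 rose and 4 fell (median 0.58, with 9 higher in replicates 1, 2 and 4), among them the catalytic subunit gene Cnot6l at 2.19 ± 0.22 and the AU-rich element binding protein gene Zfp36l1 at 3.33 ± 0.34 (edgeR adjusted p = 1.49e-06 and 1.68e-06). Decay and decapping genes were near the background, with 12 of 36 higher (33.3%, against 28.4% of all genes) and 10 lower (27.8%, against 23.2%), and 5 lower with the 10 libraries. Edc3 and Dcp2, of the decapping complex, rose by 3.10 ± 0.31 and 2.31 ± 0.26 (edgeR adjusted p = 1.68e-06 and 4.79e-06). In the scrambled pair Edc3 lay at 0.05 and Dcp2 at 2.09. The difference passed for Edc3 and not for Dcp2 (edgeR adjusted p = 9.22e-05 and 0.706). Splicing factors of the hnRNP and SR families had 15 of 34 higher (44.1%, against 28.4% of all genes) and 8 lower (23.5%, against 23.2%). With the 10 libraries 8 were higher and 5 lower. Their median of 0.20 with 16 libraries turned to −0.06 with upper-quartile factors. Hnrnph1 lay at 1.93 ± 0.23 and Tra2b at 1.64 ± 0.20 (edgeR adjusted p = 6.77e-06 and 9.51e-06). The difference from the scrambled pair did not pass for Hnrnph1 and passed for Tra2b (edgeR adjusted p = 0.102 and 1.55e-04).

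Growth factor signalling genes were mostly higher. Of 32 genes of PDGF, IGF and PI3K-Akt signalling 20 rose and 5 fell (median 1.67), and the list summed to 6162, 10274, 8204 and 8044 CPM in the pulldown against 1207, 1304, 1251 and 2687 CPM in the input. Leaving out the 9 reported targets, 13 of 23 rose and 4 fell, and with the 10 libraries 3 of the 32 fell. In the scrambled pair 17 of the 32 were higher and 3 lower (median 0.71), where 18.5% of all genes were higher. Against that pair 11 were more enriched with miR-29b and 8 less. The kinase gene Sgk1 had 202 ± 34.5 CPM in the pulldown and 46.9 ± 10.9 CPM in the input (SD, n = 4 each, log2 2.11 ± 0.22 SE, edgeR adjusted p = 1.88e-06). Rheb, the GTPase that activates mTORC1, fell by 1.57 ± 0.15 (edgeR adjusted p = 1.16e-06). Of 30 TGF-beta pathway genes 19 rose and 5 fell (median 1.18), and 3 fell with replicates 1, 2 and 4. Within it the ligands parted. Tgfb2 had 28.1 ± 4.24 CPM in the pulldown and 4.42 ± 0.522 CPM in the input (log2 2.67 ± 0.31 SE), whereas Tgfb1 was the lowest of all genes named by log2 change. The co-receptor gene Tgfbr3 rose by 1.80 ± 0.20 (edgeR adjusted p = 3.54e-06 for Tgfbr3 and 5.23e-06 for Tgfb2).

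In the Wnt list 11 of 25 rose and 4 fell (median 0.61), with the repressor gene Hbp1 at 868 ± 294 CPM in the pulldown and 63.6 ± 24.8 CPM in the input (SD, n = 4 each, log2 3.77 ± 0.37 SE, edgeR adjusted p = 1.50e-06). Of 32 immediate early genes 13 rose and 2 fell (5 fell without replicate 4 and 4 with the block), with the phosphatase gene Dusp5 at 2.54 ± 0.24 and Klf6 at 1.94 ± 0.18 (edgeR adjusted p = 1.04e-06 and 1.07e-06). G1 cell cycle genes had 12 of 27 higher (44.4%, against 28.4% of all genes) and 6 lower (22.2%, against 23.2%). With the 10 libraries these counts were 10 and 3. Ccnd2, a D-type cyclin, had 7337 ± 2093 CPM in the pulldown and 1179 ± 30.1 CPM in the input (SD, n = 4 each, log2 2.64 ± 0.24 SE, edgeR adjusted p = 1.05e-06). The retinoblastoma gene Rb1 had 40.9, 39.2, 36.6 and 40.9 CPM in the pulldown, level across replicates, and 4.20, 5.15, 4.18 and 11.0 CPM in the input (log2 2.68 ± 0.28 SE, edgeR adjusted p = 2.28e-06). S phase and mitosis genes mostly did not pass, with 7 higher and 2 lower of 40, against 13 and 8 without replicate 4, 1 and 1 with replicates 1, 2 and 4, and 13 and 6 with the block.

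Of 121 ubiquitin-specific protease and cullin ligase genes 58 rose and 19 fell (median 0.50, with 43 and 11 by the 10 libraries), among them the adaptor gene Kctd3 at 2.48 ± 0.18 and the F-box gene Fbxo30 at 2.19 ± 0.21 (edgeR adjusted p = 6.88e-07 and 1.22e-06). Of 320 C2H2 zinc finger genes, a large family of transcription factors, 136 rose and 26 fell (median 0.46, with 108 and 16 by the 10 libraries), and 7 of them carry a site mark. Zfp346 had 309.6 ± 121 CPM in the pulldown and 29.5 ± 9.80 CPM in the input (SD, n = 4 each, log2 3.39 ± 0.32 SE, edgeR adjusted p = 1.11e-06). In the scrambled pair this family had 99 higher and 20 lower (median 0.45). Of 21 genes of DNA methylation and demethylation 11 rose and 4 fell (median 1.23, with 2 lower in replicates 1, 2 and 4). Of these 7 are reported targets, and of the other 14 genes 4 rose and 4 fell. Over all genes 28.4% rose and 23.2% fell, so these 14 showed no gain beyond the background. In the scrambled pair 8 of the 21 were higher and 3 lower (median 0.73). Against that pair 4 were more enriched with miR-29b and 2 less, near the 17.0% and 9.21% of all genes. The reader of methylated DNA, Mbd2, fell by 1.48 ± 0.13 (edgeR adjusted p = 7.97e-07).

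Iron genes showed a gain in number and a loss in amount. Of 16 genes 10 rose and 2 fell (median 0.80), with 4 lower once replicate 4 was left out. The iron exporter gene Slc40a1 had 179 ± 64.8 CPM in the pulldown and 11.7 ± 7.90 CPM in the input (SD, n = 4 each, log2 3.94 ± 0.39 SE, edgeR adjusted p = 1.39e-06), or 4.57 on the log2 scale without input replicate 4. Ncoa4, the receptor for ferritin degradation, rose by 2.85 ± 0.27. The 2 that fell were the ferritin subunits themselves, Fth1 at −1.40 ± 0.22 and Ftl1 at −1.64 ± 0.30 (edgeR adjusted p = 6.33e-05 and 2.94e-04), named after their values were seen. They are so abundant that the list summed to 7103 to 13321 CPM in the pulldown and to 21669.6 to 24579 CPM in the input.

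**Figure D3:**
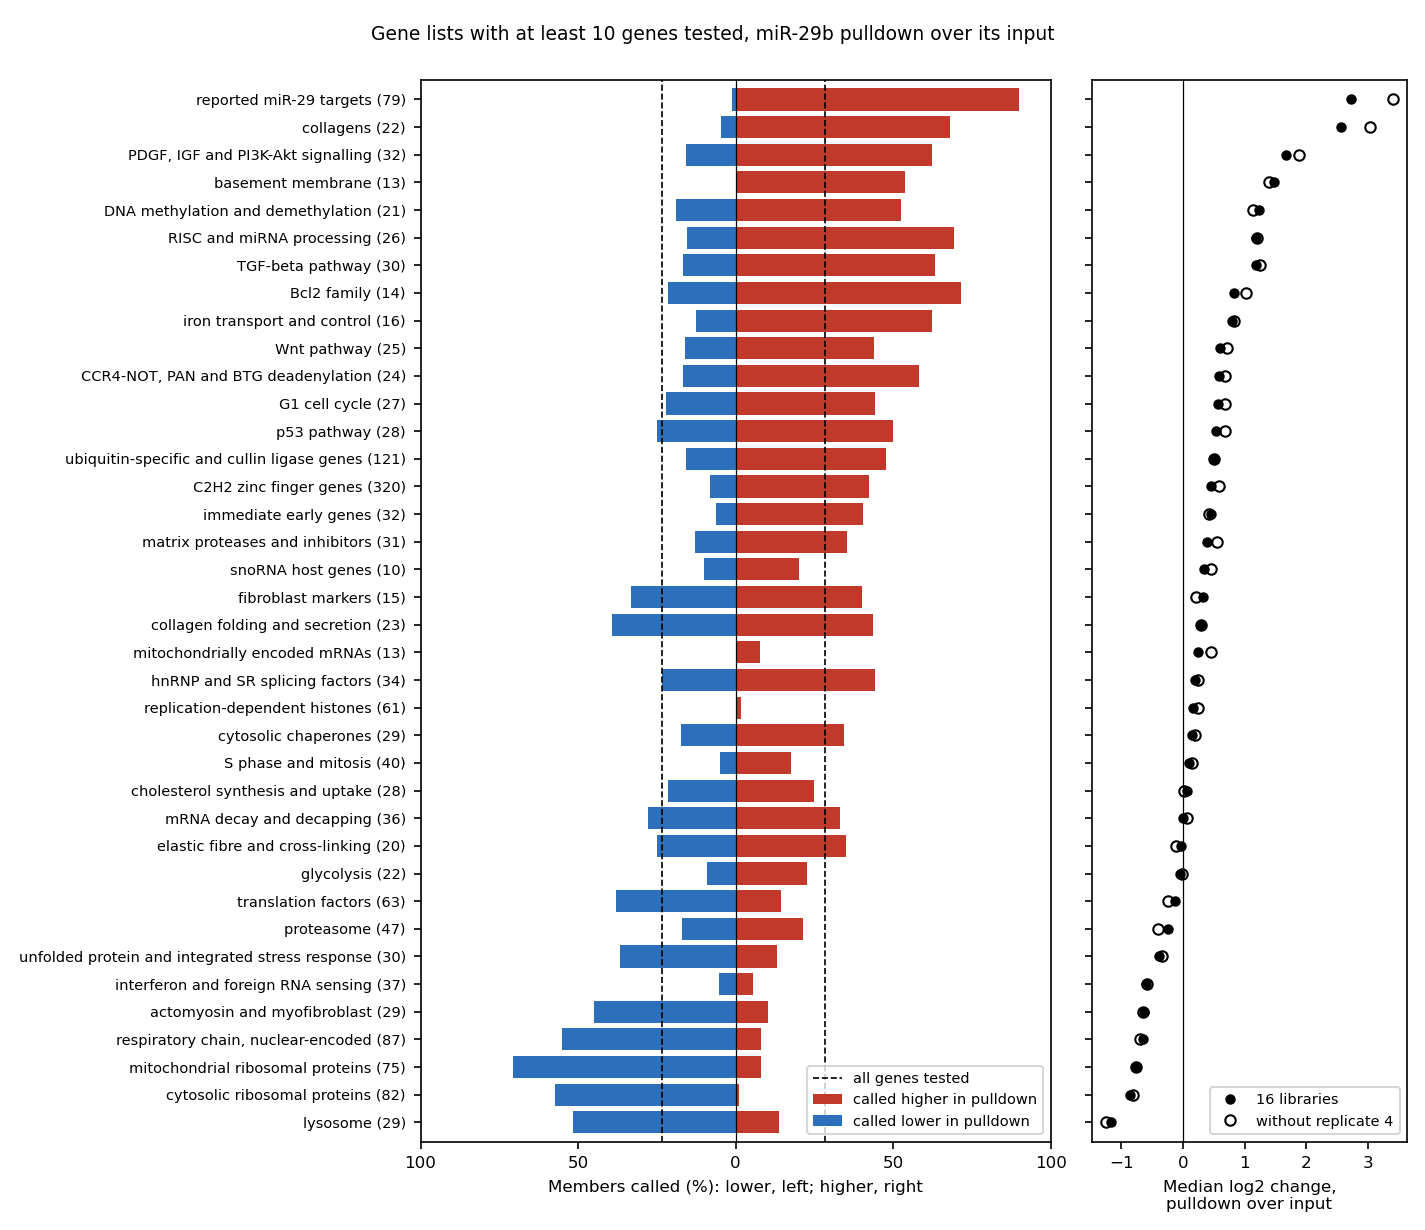
Left, percentage of members called higher (red, to the right) and lower (blue, to the left) in the miR-29b pulldown for lists with at least 10 genes tested (number in brackets), with dashed lines at the 28.4% and 23.2% of all genes tested. Right, the median log2 change with 16 libraries (filled) and without replicate 4 (open), from 2.73 for reported miR-29 targets to −1.16 for lysosomal genes with 16 libraries.

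The lost RNAs named here encode a growth factor, a transcription factor, translation proteins and enzymes, and none of the 12 named for the lowest log2 change carries a site mark. Tgfb1, the founding TGF-beta ligand (ENSMUSG00000002603, chromosome 7, 25687002 to 25705077), had 18.6, 14.4, 16.5 and 12.3 CPM in the pulldown, against 78.0, 87.9, 89.6 and 39.3 CPM in the input. This is a 4.78-fold loss (log2 change −2.26 ± 0.23 SE, edgeR adjusted p = 2.10e-06), with replicate 4 lowest in both groups. Cebpb, a transcription factor, had 7.41, 8.01, 12.5 and 6.71 CPM in the pulldown and 22.4, 47.1, 51.6 and 43.7 CPM in the input (log2 −2.25 ± 0.30 SE, edgeR adjusted p = 1.57e-05). Pabpc1, the cytoplasmic poly(A)-binding protein, had 485, 469, 485 and 525 CPM in the pulldown, almost level, and 1478, 1734, 1557 and 3366 CPM in the input. This is a 4.14-fold loss (log2 change −2.05 ± 0.30 SE, edgeR adjusted p = 4.08e-05).

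Lars2, the mitochondrial leucyl-tRNA synthetase (chromosome 9, 123366927 to 123462675), had 698, 341, 510.2 and 494 CPM in the pulldown and 2641, 2093, 2376 and 1459 CPM in the input. This is a 4.19-fold loss (log2 change −2.07 ± 0.24 SE, edgeR adjusted p = 5.99e-06), and it lay at 0.66 in the scrambled pair, a difference that passed (edgeR adjusted p = 3.24e-05). Ubiquitin pathway enzymes appear here as well, with the NEDD8-conjugating enzyme gene Ube2m at −2.07 ± 0.19 and the mitotic ubiquitin-conjugating enzyme gene Ube2s at −2.03 ± 0.27 (edgeR adjusted p = 1.13e-06 and 2.02e-05). The selenoprotein gene Sepn1 lay at −2.17, Fam132a at −2.13, the corepressor gene Aes at −2.05 and Yrdc, which modifies tRNA, at −1.99. Oaf and the mitochondrial lipid transfer gene Prelid1 (−1.98) complete the 12. Without replicate 4 the 12 genes lay between −1.66 and −2.34.

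Genes of both ribosomes and of oxidative phosphorylation were lost as groups with all 16 libraries, where 23.2% of all genes fell and 28.4% rose. Of 82 cytosolic ribosomal protein mRNAs 47 fell (57.3%) and 1 rose (median −0.86). Of 75 mitochondrial ribosomal protein mRNAs 53 fell (70.7%) and 6 rose (median −0.76). Of 87 nuclear-encoded respiratory chain genes 48 fell (55.2%) and 7 rose (median −0.65). Rpl6 had 273, 177, 218 and 199.8 CPM in the pulldown and 567, 540.2, 546 and 579 CPM in the input (log2 −1.36 ± 0.17 SE, edgeR adjusted p = 7.69e-06). Mrpl49 fell by 1.32 ± 0.12 on the log2 scale (SE, edgeR adjusted p = 8.92e-07). Ndufc2, a subunit of complex I, fell by 1.29 ± 0.15 (edgeR adjusted p = 6.57e-06). Exceptions were large. Atp5c1, a subunit of ATP synthase, had 907 ± 60.8 CPM in the pulldown and 215 ± 73.9 CPM in the input (log2 2.08 ± 0.20 SE, edgeR adjusted p = 1.17e-06). With the 10 libraries the 3 groups had 15, 36 and 27 genes lower and 0, 4 and 3 higher, and with replicates 1, 2 and 4 they had 31, 34 and 32 lower. In the scrambled pair 28, 49 and 43 of them were lower.

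Of 63 translation factors 24 fell and 9 rose (15 and 5 with the 10 libraries), and their median of −0.13 turned to 0.12 on library totals. Eif3h fell by 1.31 ± 0.14, while Eif4h, a cofactor of the eIF4A helicase, had 2853, 4616, 3776 and 2766 CPM in the pulldown and 199, 197, 205 and 676 CPM in the input (log2 3.46 ± 0.38 SE, edgeR adjusted p = 3.13e-06 for Eif4h and 3.19e-06 for Eif3h). Without input replicate 4, Eif4h lay at 4.16. Of 29 lysosomal genes 15 fell and 4 rose (median −1.16). The count depends on the libraries, with 22 lower without replicate 4 and 1 lower with replicates 1, 2 and 4. Its sum was 5789, 4035, 4883 and 2240.2 CPM in the pulldown and 9057, 8528, 8720.0 and 2395 CPM in the input, so in replicate 4 the 2 groups nearly met. Lamp1, a major membrane protein of lysosomes, fell by 1.71 ± 0.41, while Atp6v1a, of the proton pump, and Tfeb, which drives lysosomal genes, rose by 2.25 ± 0.25 and 2.14 ± 0.25 (edgeR adjusted p = 0.00249, 3.53e-06 and 4.96e-06). Of 29 actomyosin genes 13 fell and 3 rose (median −0.63), and 5 rose without replicate 4. Myl12a, a myosin light chain, fell by 1.38 ± 0.17 and Tagln2 by 1.48 ± 0.18, and the tropomyosin gene Tpm1, with a site mark, rose by 1.53 ± 0.14 (edgeR adjusted p = 7.86e-06, 6.50e-06 and 1.05e-06). Unfolded protein response genes had 11 of 30 lower and 4 higher (6 lower with replicates 1, 2 and 4), with Creld2 at −1.67 ± 0.20 and the sensor gene Atf6 at 1.52 ± 0.15 (edgeR adjusted p = 7.94e-06 and 1.17e-06).

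Some pathways were mixed or near the background, which was 28.4% of all genes higher and 23.2% lower. The medians of all but the snoRNA host genes among these pathways changed sign with the scaling. Cholesterol synthesis and uptake had 7 of 28 higher and 6 lower (1 lower with replicates 1, 2 and 4), with the feedback gene Insig1 at 2.49 ± 0.36 (3.18 without input replicate 4) and mevalonate kinase, Mvk, at −1.46 ± 0.17 (edgeR adjusted p = 3.84e-05 and 5.82e-06). Glycolysis and lactate transport had 5 of 22 higher and 2 lower (6 lower without replicate 4, 4 with the block), with the transporter gene Slc16a1 at 1.98 ± 0.19 (edgeR adjusted p = 1.38e-06). Proteasome genes had 10 of 47 higher and 8 lower (21 lower without replicate 4, 16 with the block), with Psma5 and Psma3 of the core particle at 1.98 ± 0.19 and 1.37 ± 0.14 (edgeR adjusted p = 1.16e-06 and 1.57e-06), against −1.21 and −1.05 in the scrambled pair. Chaperone genes had 10 of 29 higher and 5 lower (5 and 4 with the 10 libraries, 8 lower with the block), with Cct5 and Cct8 of the cytosolic chaperonin at 2.03 ± 0.18 and 1.30 ± 0.17 (edgeR adjusted p = 9.35e-07 and 1.53e-05). Of 10 snoRNA host genes 2 rose and 1 fell (5 rose without replicate 4), with Snhg6 at 2.37 ± 0.34 (edgeR adjusted p = 3.36e-05), or 3.02 without input replicate 4.

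Replicate 4 changed the size of the gains more than their direction. Of the 3672 genes called higher with all libraries, 3630 (98.9%) were also called higher without replicate 4, and of the 2991 called lower, 2884 (96.4%) were. No gene was called in opposite directions. Both fits hold replicates 1 to 3, and the fit without replicate 4 calls more genes. This overlap was therefore largely fixed in advance and says little about replicate 4 itself. In replicate 4 alone, which is 1 library a group and was not tested, 2034 of 9173 genes with at least 5 CPM (22.2%) were at least 2-fold higher and 1391 (15.2%) at least 2-fold lower. Of the genes called higher without it, 96.1% were above their input in replicate 4 too, and of those called lower 89.4% were below. Across these 9173 genes the log2 ratio in replicate 4 and in replicates 1 to 3 had a Pearson r of 0.86, as a description over genes, which are not replicates.

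The ratio in replicate 4 levelled off. Of the genes with a log2 change of at least 4 in replicates 1 to 3 and at least 50 CPM in pulldown replicate 4, 165 in all, the pulldown over input ratio in replicate 4 was 1.92 to 5.04, with a median of 4.42. In replicates 1 to 3 the same genes had ratios of 15.7 to 113, with a median of 23.6. The genes were chosen by these values, so high ratios there follow from the choice. Part of the drop in replicate 4 is expected from it, and how much was not tested. Their median level in input replicate 4 was 59.2 CPM, against 8.19 CPM in input replicates 1 to 3 and 12.2 CPM in scrambled input replicate 4. For reported miR-29 targets with at least 5 CPM the median log2 ratio was 2.83, 3.47, 3.17 and 1.88 in replicates 1 to 4. Other lists varied in this respect. The medians in replicates 1 to 4 were −0.75, −1.02, −0.86 and −0.91 for cytosolic ribosomal proteins and 0.47, 0.45, 0.46 and 0.63 for ubiquitin genes. They were −0.62, −0.72, −0.68 and −0.03 for actomyosin genes and −1.06, −1.58, −1.33 and −0.53 for lysosomal genes, which moved toward 0 in replicate 4. The part of the raised levels in input replicate 4 in these ratios was not tested.

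**Figure D4:**
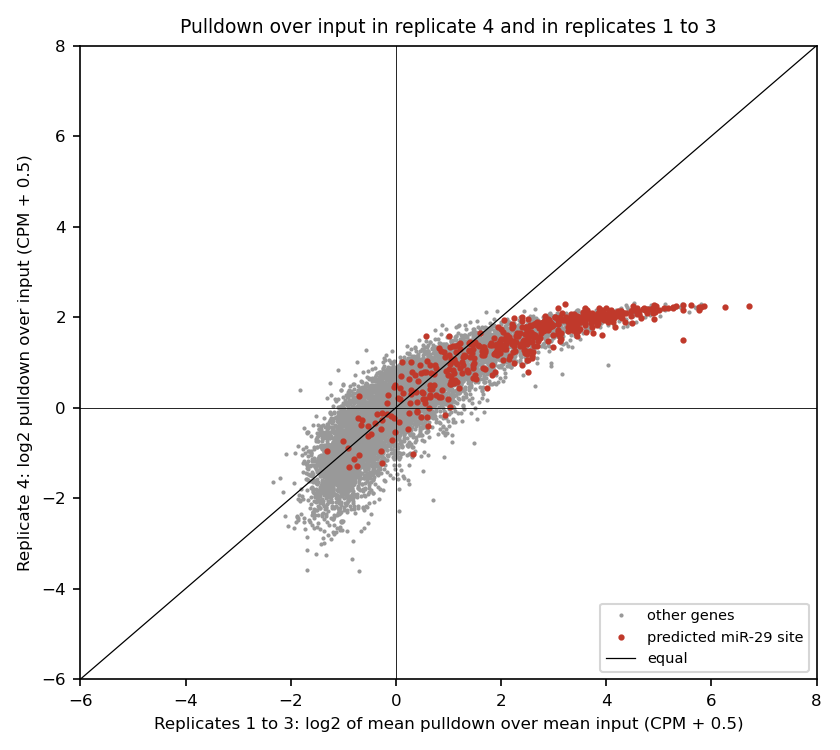
Log2 pulldown over input ratio in replicate 4 (y axis) against the same ratio from mean levels of replicates 1 to 3 (x axis), both from CPM with 0.5 added, for 9173 genes with at least 5 CPM in replicate 4; genes with a predicted site are red and the line marks equality. The highest ratios of replicates 1 to 3 spread to the right while those of replicate 4 stay near a level, and few genes lie in the opposite quadrants.

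Interferon genes were called differently with and without replicate 4. Of 37 genes, 21 were lower and 7 higher without it, where 31.0% and 34.1% of all genes were. With it 2 were lower and 2 higher (5.41% each, against 23.2% and 28.4% of all genes). Their summed level was 7988, 8019.8, 8016 and 903 CPM in the pulldown and 8297, 7935, 8114 and 1239 CPM in the input, so replicate 4 held less interferon RNA in both groups alike. Rsad2, an antiviral enzyme, had 874, 1219 and 1040.5 CPM in pulldown replicates 1 to 3 and 19.6 CPM in replicate 4, against 31.9, 31.6, 31.3 and 4.41 CPM in the input. It was 1 of the 2 that rose (log2 4.99 ± 1.14 SE, edgeR adjusted p = 0.00176), but not with the 10 libraries (edgeR adjusted p = 0.0634). Only 7 genes with at least 5 CPM were called without replicate 4 and lay at least 2-fold the other way in it. They include Psme2, an interferon-induced proteasome activator, with 267, 363, 308 and 17.3 CPM in the pulldown and 172, 166, 159 and 37.4 CPM in the input, named after its values were seen.

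The predicted sites marked in the authors' table, which its column names attribute to TargetScan, were far more frequent among gained than among lost mRNAs. Of 507 protein-coding genes with any site, 425 rose and 15 fell (median log2 2.20), against 3078 and 2765 of 10994 without one (median −0.05). With an 8mer site 136 of 148 rose and none fell (median 2.63), and with the context score mark 149 of 166 rose and 2 fell (median 2.57). Without replicate 4 the median was 2.57 for any site and 3.20 for an 8mer, and in replicate 4 alone 1.59 and 1.81 over genes with at least 5 CPM. Seen from the genes, a site was marked in 47.4% of the 253 protein-coding genes that rose at least 8-fold, in 12.7% of those that rose 2- to 8-fold and in 2.84% of those that rose less. It was marked in 0.540% of the genes that fell and in 4.41% of all. Most genes called higher therefore carry no mark, 3078 of 3503. The release behind the marks is not given in the sources used here.

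**Figure D5:**
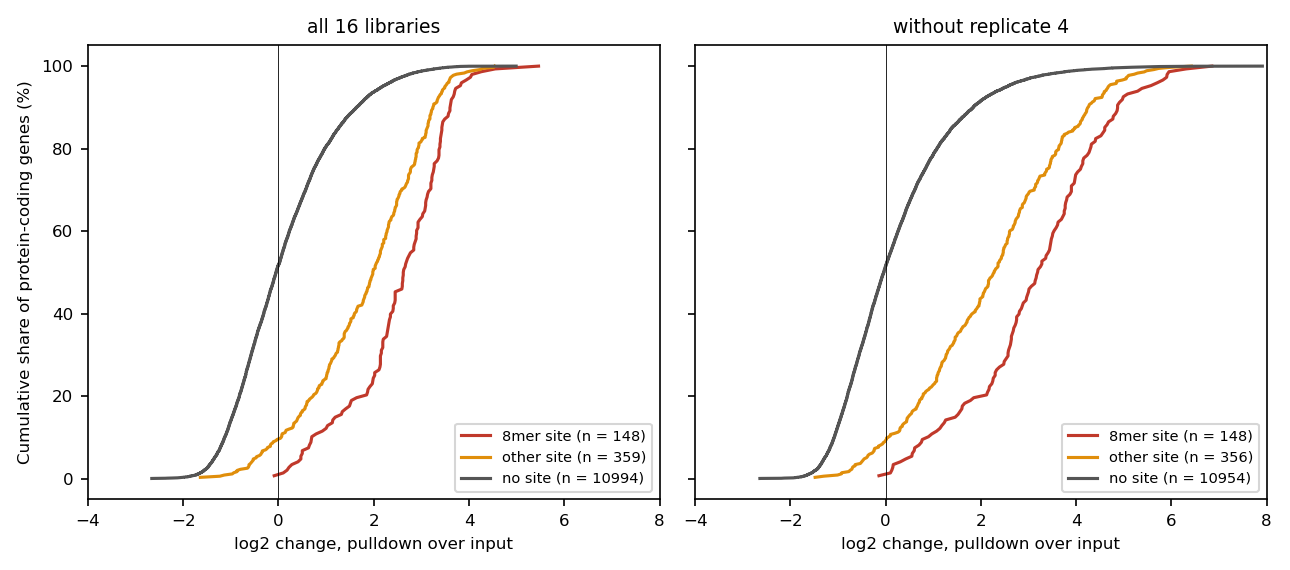
Cumulative share (%) of protein-coding genes by log2 change, pulldown over input, for genes with an 8mer site (red), another predicted site (orange) or no predicted site (grey), with all 16 libraries (left) and without replicate 4 (right). Genes with sites lie to the right of those without, with medians of 2.63 for an 8mer and −0.05 for no site in the left panel, and the right panel reaches higher values.

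Gained and lost mRNAs also differed in gene length, level and place in the cell. Among protein-coding genes matched to RefSeq, the median genomic span was 36.5 kb for genes called higher, 14.7 kb for genes called lower and 21.1 kb for the rest. Their median input level was 14.3, 31.6 and 9.48 CPM. Spearman's rho of span with the log2 change was 0.30 over 11380 genes, a description, since counts per gene also grow with transcript length. In the miR-29b fraction inputs, 1 library each, the median log2 ratio of nuclear over cytoplasmic level was 0.73 for genes called higher and −0.87 for genes called lower, against 0.13 for the rest. Gained mRNAs thus came from longer genes and were more nuclear in the input, and lost mRNAs came from shorter, more abundant and more cytoplasmic ones.

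The fraction pulldowns, also 1 library each and without a test, gave smaller ratios. In the cytoplasm 1579 of 11535 genes (13.7%) were at least 2-fold higher than in the input and 1083 (9.39%) at least 2-fold lower, and in the nucleus 269 (2.33%) and 109 (0.945%). Of the protein-coding genes called higher in whole cells, 69.9% were above the input in the cytoplasm (median log2 0.37) and 47.9% in the nucleus (median −0.02). Of all 10626 protein-coding genes with fraction values, 5059 were above the input in the cytoplasm and 4930 in the nucleus. Of those called lower, 69.3% were below it in the cytoplasm (median −0.40) and 49.4% in the nucleus (median 0.00). Genes with an 8mer site had medians of 1.07 and 0.28. Ribosomal protein mRNAs, which fell in whole cells, had medians of 1.19 in the cytoplasm and 0.60 in the nucleus, and respiratory chain genes had 0.97 and 0.53.

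Set against the scrambled mimic in the same fit, 1863 of the 3672 genes called higher (50.7%) were also more enriched than in the scrambled pair, and 679 of the 2991 called lower (22.7%) were also less enriched. Over all genes these differences were called in 2192 (17.0%) and 1190 (9.21%), the second at 1931 with the replicate block and 2457 without replicate 4. The test is the interaction term of edgeR's quasi-likelihood test. It counts scrambled pulldown replicates 3 and 4 as separate libraries, though both lay near sums of replicates 1 and 2. The scrambled pulldown had 2392 genes (18.5%) higher and 2246 (17.4%) lower than its input. Among genes with an 8mer site 108 of 148 were more enriched with miR-29b, among reported targets 55 of 79 and among RISC genes 6 of 26, while 5 of these 26 were less enriched. Of 82 ribosomal protein mRNAs 5 were less enriched, of 75 mitochondrial ribosomal ones 3, and of 87 respiratory chain genes 7, against 13 more enriched. Gm26924 and ENSMUSG00000098973, the abundant transcripts that fell with miR-29b, lay at −0.21 in the scrambled pair for both (edgeR adjusted p = 0.00386 and 0.00468 for the difference). For the small structural class as a whole the scrambled pulldown took 1.41% ± 0.0951 of its counts and the scrambled input 0.867% ± 0.101 (SD, n = 4 each).

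Fibroblast markers were abundant and markers of most other cell types were near 0. Of 17 fibroblast markers 15 were tested, of which 6 rose and 5 fell. Of these 15, 5 are reported miR-29 targets, and of the other 10 genes 1 rose and 5 fell. Their sum was 9935 to 16979 CPM in the pulldown and 5274 to 8141 CPM in the input. Epithelial, endothelial, leukocyte and muscle markers summed to at most 5.43 CPM in any of the 8 libraries, with 2, 1, 2 and 3 genes of these lists tested. Neural markers summed to 19.6 to 20.4 CPM in the pulldown and 15.9 to 19.4 CPM in the input. Of 8 adipocyte markers 1 rose and 1 fell, and the sum of 1171 to 4103 CPM in the pulldown and 469 to 1326 CPM in the input was mostly the lipase gene Lpl. Its log2 change of 2.16 ± 0.50 (SE, edgeR adjusted p = 0.00190) was lost when the 10 libraries were used (edgeR adjusted p = 0.0782). In bulk libraries such as these, fewer cells of a type and less RNA per cell cannot be told apart.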

How the data were processed

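The authors deposited whole-number counts per gene and library, with CPM beside them, from STAR 2.3.0 and the mm10 build per the submitters' processing notes. No source at hand names the counter, the annotation release or the strand setting. The deposited CPM values were not used in tests. Listed counts were 74.2% to 87.3% of the authors' library totals in the 8 libraries. The table held 14052 lines for 13534 genes, and 518 repeat lines were dropped. Symbols and coordinates came from RefSeq, GRCm38.p6, with 13095 genes matched.

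All 16 whole-cell libraries were fitted with edgeR 4.0.16 (filterByExpr, TMM, quasi-likelihood test, 4 group means, threshold 0.05), which left 12915 genes and 619 under the filter. Class shares were compared by exact permutation tests. In simulated counts of this comparison over 12826 genes, all 200 genes changed 4-fold were called (100%) and 9 others were. The simulated libraries were independent and had the same dispersion for every gene (0.106). The real libraries include sums of others and an outlying replicate 4, so the simulation gives no error rate for the real calls. Fraction ratios used a prior count of 5 and genes with at least 20 counts in all 8 fraction libraries together.

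Named genes were those with the 12 highest and 12 lowest values of log2 change, taken from genes called with and without replicate 4 in 1 direction, with at least 5 CPM, an official symbol and no overlap, up to 3 called members per list, up to 2 per noncoding class and direction, the 6 largest shares and 12 fixed genes, and not all are printed. The members and the 45 lists were chosen with earlier results of these data known. Same-numbered pulldown and input libraries deviated together (r = 0.603, 0.379, 0.544 and 0.7), and without replicate 4 the values were 0.258, 0.222 and 0.0935. With all libraries, mismatched numbers also gave high values, such as r = 0.515 for pulldown replicate 1 with input replicate 3. The deviations were taken from group means that hold replicate 4. They therefore cannot show whether the numbers pair replicates 1 to 3. Without replicate 4 the mismatched pairs lay at −0.224 to 0.00846. The fit with the number as a block is an alternative, as planned. Alternatives were RLE and upper-quartile factors, library totals, DESeq2 1.42.0, other filters, subsets of libraries, a replicate block and leaving out each library. Leaving out replicate 3, the 10 libraries, and 2 fits within the compared groups were added after the data were seen.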

Additional observations from a re-analysis of the deposited data

Results flagged for a closer look

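Of 96 groups of 4 libraries examined, in 41 genes and 7 class shares, 27 held a library far from the other 3 by Dixon's criterion. Chance gives about 1 in 20 groups of independent values, and that rate does not hold here in full, since replicate 3 lay near a weighted sum of replicates 1 and 2. In 24 of the 27 the library was input replicate 4. Among gained genes it read 1.45 CPM for Frat2, 20.9 for Zbtb5, 28.8 for Dnmt3a, 57.2 for Nrep, 29.3 for Ypel2, 106 for Acvr2a, 8.09 for Bbc3, 157 for Tet2 and 50.8 for Col4a5. It also read 5.43 CPM for Tdg, 1233 for Col1a1, 277 for Col3a1, 314 for Mcl1, 1.94 for Dnmt3b, 373 for Tet3, 28.2 for Fbn1, 49.1 for Cdk6 and 53.3 for Klf4. Among lost genes it read 20.1 CPM for Sepn1, 118 for Ube2m, 3366 for Pabpc1 and 892 for Prelid1. Its class shares stood apart at 0.0912% for histone mRNAs and 38.6% for other protein-coding mRNAs. Pulldown replicate 4 stood apart in the other 3, at 2.89 CPM for Yrdc, 1314 CPM for Col4a1 and 8.31% for ribosomal protein mRNAs.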

How the results depend on the processing

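Of the results for named genes, 3621 kept their direction and side of the threshold over all alternatives, 87 no longer passed, 10 newly passed and 5 reversed. The 5 were all mt-Rnr2, which never passed, at 0.07 on library totals, 0.06 without replicate 4, 0.05 in the 14 libraries that lack replicate 4 of the miR-29b groups, 0.08 with the replicate block in replicates 1 to 3 and 0.03 with the 6 libraries of replicates 1 to 3. Genes called lower, 2991, came to 1568 on library totals, 1808 with replicates 1, 2 and 4, 1877 with the 10 libraries and 1500 at 2-fold or more. Genes less enriched than with the scrambled mimic, 1190, came to 2457 without replicate 4 and 1931 with the replicate block. With that block 4022 genes were higher and 3651 lower, and it changed no call of a named gene. Leaving out 1 library gave 3305 to 3947 higher and 2516 to 3272 lower. DESeq2 gave 3800 and 3215. Differences in share, in percentage points, reversed for histone mRNAs (0.0199) to −0.00188 and for long noncoding RNAs (−17.6) to 0.446 without the 10 largest genes. For mitochondrially encoded RNAs (−0.0253) they reversed to 1.59 on library totals and 1.94 without replicate 4. Leaving out 1 library gave −2.64 to 1.66 for these RNAs, with 1.54 and 1.66 without pulldown replicate 2 or 4 and 0.620 and 0.254 without input replicate 2 or 4. It gave −0.00809 to 0.0339 for histone mRNAs. The causes were not tested. Genes under the count filter, 619, were not tested.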
